A study of Mus musculus with 8 samples.

Results

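Matrix metalloproteinases (Mmp genes) and their tissue inhibitors (Timp genes) were described across 4 mouse mammary tumour cell lines. The 10 genes, Mmp2, Mmp3, Mmp9, Mmp10, Mmp13, Mmp14, Mmp19, Timp1, Timp2 and Timp3, were chosen by symbol from the 27179 genes counted, with earlier results of these data known. Each was found as 1 Entrez gene. 9 of the 10 passed the filter on low counts and were tested. Timp3 did not, and is given by its counts and by a separate fit without that filter.

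The lines were 4T1.2, 4T1, 66cl4 and 67NR, with 2 RNA-seq libraries of each, 8 in all. They are established isogenic lines without any treatment, maintained as cultures, and the study describes 66cl4 and 67NR as less metastatic than 4T1 and 4T1.2. Each of the 2 phenotypes therefore rests on 2 lines, and a difference between lines cannot be told apart from one between phenotypes. The study calls the libraries biological replicates, but nothing in the sources says that they came from separate cultures, so p-values measure only the spread between these libraries, which may be technical.

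Matrix metalloproteinases are zinc enzymes that cleave extracellular matrix, growth factors and cell surface proteins. Most are secreted as inactive proenzymes, and some are held in the membrane. The Timp proteins bind the active site of the enzymes, and Timp2 also takes part, with the membrane enzyme encoded by Mmp14, in the activation of the Mmp2 proenzyme. In breast tumours these enzymes are known for their part in invasion and in the remodelling of bone and vessels. The transcripts measured here do not show secretion, activation or activity.

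Mmp3, Mmp10 and Mmp13 lie in a gene cluster on chromosome 9 and were all higher in 4T1 and 4T1.2, so the stretch before the start of each is shown. The sequences are the 250 bases upstream of the annotated start, from RefSeq on GRCm38.p6, written 5′ to 3′ on the strand of the gene. Capitals mark TGACTCA or its reverse complement TGAGTCA, the letters of the AP-1 element that Fos and Jun proteins bind. Mmp7, of the same cluster, is shown because it holds the same letters and had no count in any library.
Mmp3, chr9:7445572-7445821, plus strand: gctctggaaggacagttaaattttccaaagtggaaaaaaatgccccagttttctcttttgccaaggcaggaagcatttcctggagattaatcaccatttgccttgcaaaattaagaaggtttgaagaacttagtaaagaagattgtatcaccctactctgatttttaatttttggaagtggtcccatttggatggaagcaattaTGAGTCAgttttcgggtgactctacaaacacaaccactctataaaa
Mmp10, chr9:7502092-7502341, plus strand: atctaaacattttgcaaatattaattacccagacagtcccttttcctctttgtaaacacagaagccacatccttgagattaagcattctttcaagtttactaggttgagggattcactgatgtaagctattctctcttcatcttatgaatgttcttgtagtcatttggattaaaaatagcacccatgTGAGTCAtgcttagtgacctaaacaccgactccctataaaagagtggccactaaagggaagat
Mmp13, chr9:7272264-7272513, plus strand: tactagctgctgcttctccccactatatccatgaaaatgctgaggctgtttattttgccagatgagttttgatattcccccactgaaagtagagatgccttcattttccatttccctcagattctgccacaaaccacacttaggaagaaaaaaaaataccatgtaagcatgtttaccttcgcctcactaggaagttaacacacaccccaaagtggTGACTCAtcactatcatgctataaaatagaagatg
Mmp7, chr9:7691840-7692089, plus strand: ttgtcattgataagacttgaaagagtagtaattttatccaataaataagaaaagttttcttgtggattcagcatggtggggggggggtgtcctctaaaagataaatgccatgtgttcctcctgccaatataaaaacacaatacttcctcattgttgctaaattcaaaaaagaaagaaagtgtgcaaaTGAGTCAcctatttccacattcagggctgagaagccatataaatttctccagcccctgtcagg

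The AP-1 letters began 46 bases before the start of Mmp3, 63 before that of Mmp10 and 35 before that of Mmp13. The same letters were found in 4.46% of all 32851 promoter stretches of this length, on either strand, and in at least 1 stretch of 5.16% of the 27025 genes they belong to. RefSeq entries matched 7 of the 10 genes, all but Mmp2, Mmp9 and Mmp19, and 3 of the 7 held the letters. The letters were not in the windows of Mmp14, Timp1, Timp2 and Timp3. Among the other Mmp genes and Timp4, 4 of the 15 with a sequence held them, namely Mmp1a, Mmp1b, Mmp12 and Mmp7. A match is a description of the sequence, and binding was not measured.

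Libraries held between 37159840 and 66269681 counts. Values are CPM (counts per 1000000 of the library size, scaled by TMM, a correction for library composition) for comparisons of 1 gene between lines, and RPKM (CPM per kilobase of counted gene length) for comparisons between genes. Tests were made with the quasi-likelihood method of edgeR on 13927 genes, called at a Benjamini-Hochberg adjusted p under 0.05, and all adjusted p-values below are of this kind. Libraries of 1 line correlated at 0.995 to 0.996 on log2 CPM. As a check of the cell type, the 6 epithelial markers summed to 1473 to 2886 CPM in 4T1 and 4T1.2 and to 464 to 719 CPM in 66cl4 and 67NR, where Epcam had at most 1 count and Cdh1 at most 7. The 8 fibroblast markers summed to 116 to 172 CPM in 4T1 and 4T1.2 and to 253 to 513 CPM in the other lines. Most of that difference was Pdgfrb, at 2.25 CPM on average in 4T1 and 4T1.2 and 261 CPM in the other lines. Pdgfra (138 against 109.5 CPM) and Fap (0.226 against 0.103 CPM) went the other way, with libraries that overlapped. The 10 leucocyte markers summed to 8.85 to 26.8 CPM, with Ptprc at most 2 counts, and the 5 endothelial markers to at most 3.7 CPM. Among the leucocyte markers, Lyz2 averaged 0.0318 CPM in 4T1 and 4T1.2 and 21.1 CPM in the other lines. S100a8 (6.28 against 0.147 CPM) and Cd68 (4.48 against 2.33 CPM) went the other way. The part of the marker differences in the results below was not tested.

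The first question was how 4T1 and 4T1.2 differed from 66cl4 and 67NR, taken as the mean of one pair of lines against that of the other. All 9 tested genes were called, 7 higher and 2 lower in 4T1 and 4T1.2. Over all 13927 genes 76.8% were called, 38.1% as higher and 38.6% as lower, so a call alone was common. In bulk libraries, fewer cells that make a transcript and less of it per cell cannot be told apart. 6 of the 9 changed over 2-fold, against 31.9% of all genes. The same 6, Mmp2, Mmp3, Mmp9, Mmp10, Mmp13 and Mmp14, had libraries that did not overlap between the pairs, against 55.5% of all genes. The median absolute log2 fold change was 3.02 over the 9 genes and 0.58 over all genes. The 2 largest changes, of Mmp9 and Mmp3, were exceeded by 3.97% and 4.75% of all genes. As the genes were chosen with earlier results of these data known, these values beside all genes are a description only.

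**Figure D1:**
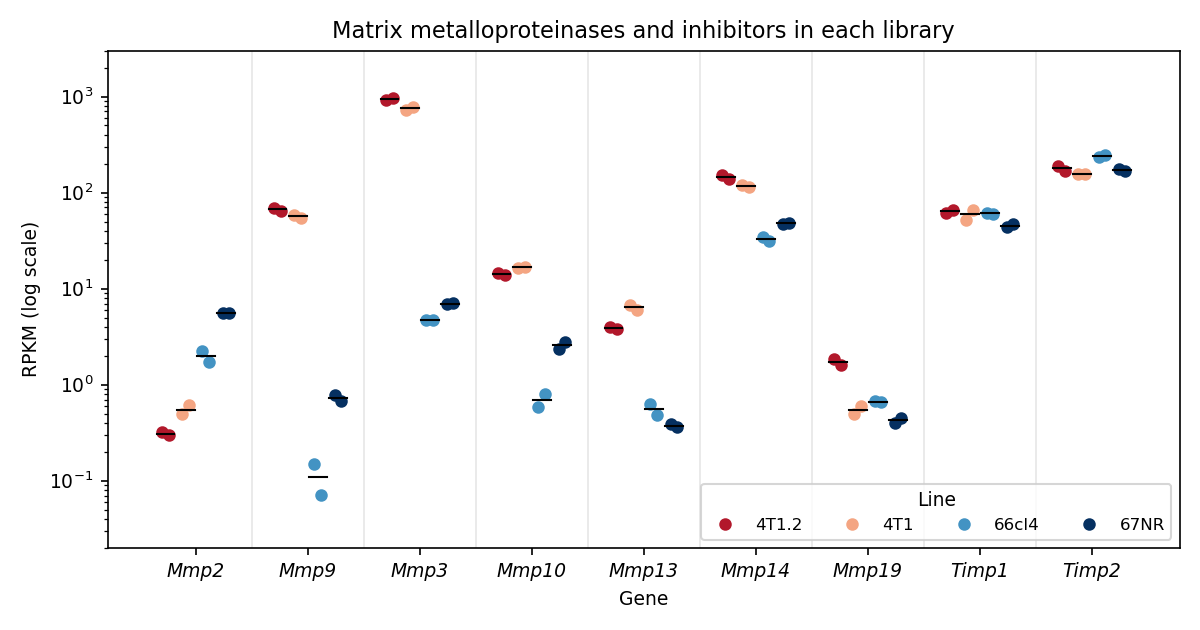
RPKM on a log scale for the 9 tested genes in each of the 8 libraries, coloured by line, with a bar at the mean of the 2 libraries of a line. Mmp3 lay between 733 and 956 RPKM in 4T1 and 4T1.2 and between 4.67 and 7.07 RPKM in 66cl4 and 67NR, while Timp1 and Timp2 overlapped between the pairs of lines.

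Among the stromelysins, enzymes of broad substrate range, Mmp3 (stromelysin-1, chr9:7445822-7455975 on GRCm38) had the highest level. It measured 1641 and 1722 CPM in 4T1.2, 1321 and 1398 CPM in 4T1, 8.41 and 8.43 CPM in 66cl4, and 12.5 and 12.7 CPM in 67NR. The 4 libraries of 4T1 and 4T1.2 all lay far above the other 4, and the 2 libraries of each line lay close together. Mmp3 was 147-fold higher in 4T1 and 4T1.2 (log2 fold change 7.20 ± 0.08, SE, edgeR adjusted p = 6.64e-12). Per length it ranked 38th of the 13927 genes in 4T1.2 and 7870th in 67NR.

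Mmp10, encoding stromelysin-2, lies 56.5 kb from Mmp3 at chr9:7502342-7510242. It measured 24.6 and 23.8 CPM in 4T1.2, 28.4 and 29.1 CPM in 4T1, 1.02 and 1.38 CPM in 66cl4, and 4.06 and 4.71 CPM in 67NR. The libraries of 4T1 and 4T1.2 were again the 4 highest, and those of 66cl4 the lowest. The log2 fold change was 3.52 ± 0.11 (edgeR adjusted p = 9.01e-10). Mmp3 and Mmp10 are similar in sequence, and 3.94% of the 75-base stretches of Mmp10 and 3.76% of those of Mmp3 are shared. In 4T1 and 4T1.2, Mmp3 had 64883 to 97709 counts and Mmp10 had 1348 to 1737. Reads of the shared Mmp3 stretches could therefore be as many as all the Mmp10 counts there. The uncertain part of the Mmp10 counts may be far larger than 3.94%, so the level and change of Mmp10 are uncertain. How shared reads were counted was not tested. The RPKM ratio of Mmp3 to Mmp10 was 66.2 ± 3.8 (SD, n = 2) for 4T1.2, 45.0 ± 1.12 for 4T1, 6.84 ± 1.47 for 66cl4 and 2.75 ± 0.25 for 67NR.

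Mmp13 (chr9:7272514-7283333), a collagenase of cartilage and bone, was expressed at a lower level. It measured 10.8 and 10.2 CPM in 4T1.2, 18.2 and 15.9 CPM in 4T1, 1.70 and 1.29 CPM in 66cl4, and 1.04 and 0.971 CPM in 67NR. Every library of 4T1 and 4T1.2 lay above every library of the other lines, with 4T1 above 4T1.2. The log2 fold change was 3.45 ± 0.12 (edgeR adjusted p = 2.73e-09).

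The gelatinases, which cleave denatured collagen and basement membrane collagen, went in opposite directions. Mmp9 (gelatinase B, chr2:164940326-164955850) measured 216 and 203 CPM in 4T1.2, 184 and 171 CPM in 4T1, 0.463 and 0.223 CPM in 66cl4, and 2.43 and 2.14 CPM in 67NR. In counts, 66cl4 had 10 and 21 against at least 7932 in each library of 4T1 and 4T1.2. Mmp9 was 218-fold higher in 4T1 and 4T1.2 (log2 fold change 7.77 ± 0.13, edgeR adjusted p = 2.05e-11).

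Mmp2 (gelatinase A, chr8:92827290-92853421) measured 0.985 and 0.899 CPM in 4T1.2, 1.49 and 1.85 CPM in 4T1, 6.75 and 5.26 CPM in 66cl4, and 17.1 and 17.0 CPM in 67NR. The order of the lines was the same in all libraries, with 67NR highest and 4T1.2 lowest. Mmp2 was the only enzyme of the 7 that was lower in 4T1 and 4T1.2 (log2 fold change -3.02 ± 0.13, edgeR adjusted p = 1.3e-08). The median of the 750 tested genes of chromosome 8 was -0.27 in this comparison.

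Mmp14 (chr14:54431598-54442456) encodes the membrane enzyme MT1-MMP. It measured 399 and 358 CPM in 4T1.2, 311 and 297 CPM in 4T1, 90.1 and 81.9 CPM in 66cl4, and 123 and 126 CPM in 67NR. No library of 66cl4 or 67NR reached the level of 4T1 or 4T1.2, but all 8 held at least 3673 counts. The log2 fold change was 1.71 ± 0.07 (edgeR adjusted p = 5.79e-09), and the median over the 480 tested genes of chromosome 14 was 0.51. The median was 0.21 for chromosome 2, which holds Mmp9, and 0.10 for chromosome 10, which holds Mmp19. For chromosomes X (Timp1) and 11 (Timp2) it was -0.44 and 0.30, opposite in direction to the changes of these inhibitors given below.

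Mmp19 (chr10:128790910-128800827), a secreted enzyme with roles in basement membrane turnover, did not follow the pairs of lines. It measured 6.39 and 5.59 CPM in 4T1.2, 1.70 and 2.05 CPM in 4T1, 2.32 and 2.30 CPM in 66cl4, and 1.39 and 1.57 CPM in 67NR. Only 4T1.2 stood above the rest, and 4T1 lay between 67NR and 66cl4. The comparison of pairs gave a log2 fold change of 0.85 ± 0.13 (edgeR adjusted p = 0.000163) with libraries that overlapped. With the lines treated as 2 groups of 4 libraries, the edgeR adjusted p was 0.0756. That setting still counts the 2 libraries of a line as separate replicates. Antisense Tmem198b covers 22.3% of the exonic bases of Mmp19. The study names the TruSeq RNA v2 protocol for these libraries, but no source used here states whether counting used strand. The Mmp19 counts over these bases may therefore include reads of Tmem198b or leave out reads of Mmp19.

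Timp1 (chrX:20870166-20874737) encodes the inhibitor that also binds the Mmp9 proenzyme. It measured 54.3 and 59.0 CPM in 4T1.2, 46.4 and 59.0 CPM in 4T1, 54.9 and 53.8 CPM in 66cl4, and 39.0 and 41.7 CPM in 67NR. Only 67NR lay below all other libraries, and the remaining 3 lines overlapped. The log2 fold change between the pairs was 0.22 ± 0.08 (edgeR adjusted p = 0.0341). It was lost, at edgeR adjusted p = 0.0602 to 0.114, without 4T1.2 replicate 2, without 4T1 replicate 2 and without any of the 4 libraries of 66cl4 and 67NR.

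Timp2 (chr11:118301061-118355411), the inhibitor that bridges Mmp14 and the Mmp2 proenzyme, was the most abundant of the 3 inhibitors in every line. It measured 682 and 615 CPM in 4T1.2, 572 and 572 CPM in 4T1, 847 and 889 CPM in 66cl4, and 644 and 614 CPM in 67NR. 66cl4 was highest, 4T1 lowest, and 4T1.2 and 67NR overlapped. The log2 fold change between the pairs was -0.28 ± 0.06 (edgeR adjusted p = 0.00294). As 2 groups of 4 libraries, the edgeR adjusted p was 0.098 for Timp2 and 0.234 for Timp1.

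Timp3 (chr10:86300412-86349505), an inhibitor that is bound to the matrix, had 0 and 1 counts in 4T1.2 and none in either 4T1 library. It had 5 and 14 counts in 66cl4 and 3 and 2 counts in 67NR. The count of 0 in a 4T1 library allows up to 3 counts, so its level there was near or under what could be detected. Without the filter on low counts, the pairs of lines differed by a fitted log2 of -4.35 (edgeR adjusted p = 0.00685). At such counts the size of the fitted value depends on the prior count. By line, 66cl4 differed from 4T1.2 and 4T1 (edgeR adjusted p = 0.00847 and 0.00387), while 67NR was not called against either (edgeR adjusted p = 0.262 and 0.0987). Antisense Syn3 covers 21.3% of the exonic bases of Timp3.

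**Figure D2:**
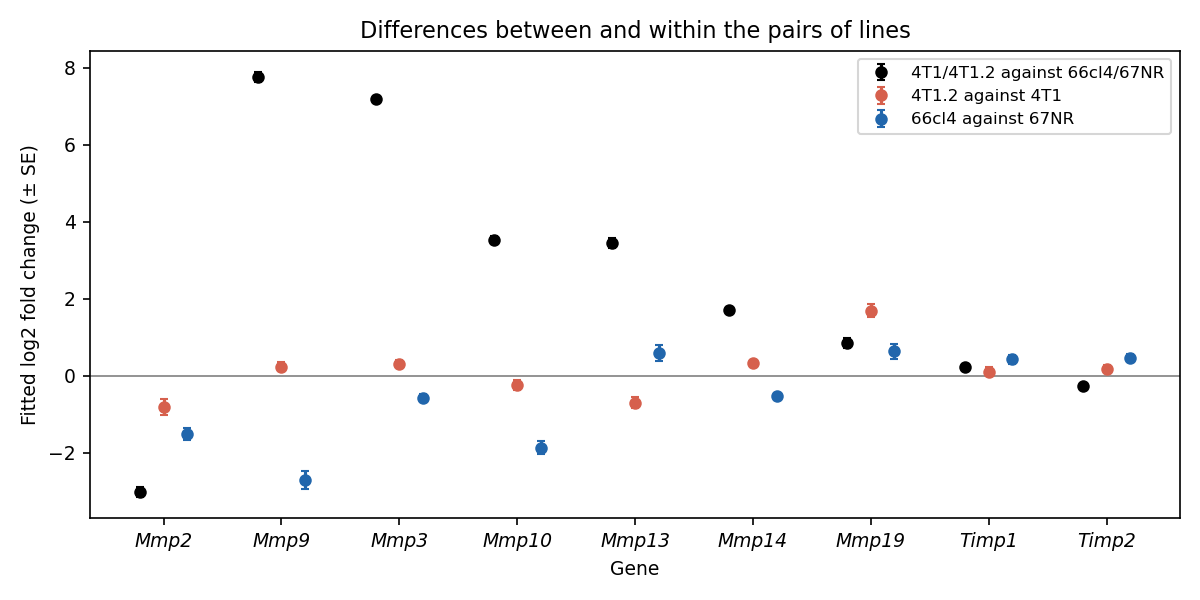
Fitted log2 fold change of the 9 tested genes, with bars of 1 SE, for the pairs of lines (black), for 4T1.2 against 4T1 (red) and for 66cl4 against 67NR (blue). Mmp3 and Mmp9 stand above 7 between the pairs, Mmp2 is negative in all 3 comparisons, and Mmp19 differs most between 4T1.2 and 4T1.

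The comparisons of single lines share libraries with each other and with the comparison of pairs, so their values are set side by side. Between 4T1.2 and 67NR, 8 of the 9 genes were called, 7 higher in 4T1.2 and Mmp2 lower, against 67.9% of all genes, 33.7% higher and 34.1% lower. Between 4T1.2 and 66cl4 it was 8, 6 higher and Mmp2 and Timp2 lower, against 68.8%, 34.3% and 34.5%. Between 4T1 and 67NR it was 7, 6 higher and Mmp2 lower, against 68.2%, 33.9% and 34.4%. Between 4T1 and 66cl4 it was 7, 5 higher and Mmp2 and Timp2 lower, against 70.1%, 34.9% and 35.2%.

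Mmp3, Mmp9, Mmp10, Mmp13 and Mmp14 were higher, and Mmp2 lower, in each of these 4 comparisons. The log2 fold change of Mmp3 lay between 6.75 ± 0.11 (4T1 against 67NR) and 7.64 ± 0.12 (4T1.2 against 66cl4). That of Mmp9 ranged more widely, from 6.29 ± 0.16 (4T1 against 67NR) to 9.24 ± 0.20 (4T1.2 against 66cl4), with 66cl4, at 10 and 21 counts, as its lowest line. Without 66cl4 replicate 1 the latter value was 9.86. Mmp2 lay between -1.86 ± 0.18 (4T1 against 66cl4) and -4.18 ± 0.19 (4T1.2 against 67NR). Mmp19 was called against both lines for 4T1.2 but for neither for 4T1, where the log2 fold change was 0.32 ± 0.19 against 67NR and -0.31 ± 0.18 against 66cl4 (edgeR adjusted p = 0.158 for both). Timp1 was higher than in 67NR in 4T1.2 (0.49 ± 0.12, edgeR adjusted p = 0.00466) and in 4T1 (0.38 ± 0.12, edgeR adjusted p = 0.0163). The latter was lost without 4T1 replicate 2 (edgeR adjusted p = 0.132) and without 67NR replicate 1 (0.105).

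Within the pair of 4T1.2 and 4T1, 5 of the 9 genes were called, 3 higher in 4T1.2 and 2 lower, against 19.3% of all genes, 9.37% higher and 9.92% lower. Mmp19 was 3.21-fold higher in 4T1.2 (log2 fold change 1.68 ± 0.17, edgeR adjusted p = 0.000168), and this call held without any single library. Mmp3 (0.31 ± 0.09, edgeR adjusted p = 0.0353) and Mmp14 (0.32 ± 0.09, edgeR adjusted p = 0.0371) were slightly higher in 4T1.2. Mmp2 (-0.82 ± 0.21, edgeR adjusted p = 0.0231) and Mmp13 (-0.70 ± 0.14, edgeR adjusted p = 0.00677) were lower. The small changes kept their direction when any library was left out, but not their calls. Mmp3 (0.27 to 0.35 on the log2 scale without 1 library) lost its call whichever library other than 4T1 replicate 2 was left out (edgeR adjusted p = 0.0527 to 0.184). Mmp14 (0.24 to 0.39) lost it without either library of 4T1.2, either of 67NR or 4T1 replicate 2 (0.0642 to 0.251 with edgeR). Mmp2 (-0.97 to -0.66) lost it without either library of 4T1.2 or 4T1 replicate 2 (0.0889 to 0.127 with edgeR), and Mmp13 (-0.80 to -0.60) without 4T1.2 replicate 2 (edgeR adjusted p = 0.0618). The number called without 1 library was 1 to 4.

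Within the pair of 66cl4 and 67NR, all 9 were called, 4 higher in 66cl4 and 5 lower, against 44.6% of all genes, 22.2% higher and 22.4% lower. The genes lower in 66cl4 were Mmp9 (-2.71 ± 0.24), Mmp10 (-1.88 ± 0.17), Mmp2 (-1.51 ± 0.16), Mmp3 (-0.58 ± 0.10) and Mmp14 (-0.54 ± 0.09), with edgeR adjusted p of at most 0.00115. Without 66cl4 replicate 1 the value of Mmp9 was -3.33. Timp2 was higher in 66cl4 (0.46 ± 0.09, edgeR adjusted p = 0.00264), as were Timp1 (0.43 ± 0.12, edgeR adjusted p = 0.0158), Mmp19 (0.63 ± 0.19, edgeR adjusted p = 0.0222) and Mmp13 (0.58 ± 0.20, edgeR adjusted p = 0.0421). Mmp19 and Timp1 lost their calls without any 1 of the 4 libraries of these lines (edgeR adjusted p = 0.053 to 0.109). Mmp13 lost its call without either library of 4T1.2 or of 67NR or without 66cl4 replicate 1 (0.0676 to 0.256 with edgeR). A test of any difference between the 4 lines called all 9 genes, against 84.8% of all genes, and its highest edgeR adjusted p was 0.0141 for Timp1.

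Levels were next compared between the genes per length, in RPKM. In 4T1.2 Mmp3 led (934 ± 31.8, SD, n = 2), followed by Timp2 (179 ± 13.1), Mmp14 (146 ± 11.2), Mmp9 (66.7 ± 2.81) and Timp1 (63.7 ± 3.72). In 4T1 the first 3 were the same, with Mmp3 at 755 ± 30.6. The libraries of Mmp9 and Timp1 overlapped in both lines, so their order was not resolved. In 66cl4 the inhibitors came first, with Timp2 at 239.6 ± 8.15 and Timp1 at 61.1 ± 0.86, followed by Mmp14 at 33.1 ± 2.23 and Mmp3 at 4.67 ± 0.01. In 67NR Timp2 (174 ± 5.81) was followed by Mmp14 (48.0 ± 0.81), Timp1 (45.4 ± 2.15), Mmp3 (7.0 ± 0.10) and Mmp2 (5.62 ± 0.02).

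The summed RPKM of the 7 enzymes was 4.81 ± 0.26 times that of the 3 inhibitors in 4T1.2 and 4.39 ± 0.09 times in 4T1. The ratio was 0.139 ± 0.012 in 66cl4 and 0.296 ± 0.010 in 67NR. The inhibitor sum itself ranged only from 217 ± 9.97 RPKM in 4T1 to 301 ± 7.32 RPKM in 66cl4. Without Mmp3 the ratio was 0.957 ± 0.023, 0.912 ± 0.075, 0.124 ± 0.012 and 0.264 ± 0.009 in the same order of lines. Mmp3 made up 80.1% of the enzyme sum in 4T1.2 and 79.2% in 4T1, whereas Mmp14 made up 79.2% in 66cl4 and 74.2% in 67NR. These are ratios of transcripts, and with 2 libraries a line no test was made on them.

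**Figure D3:**
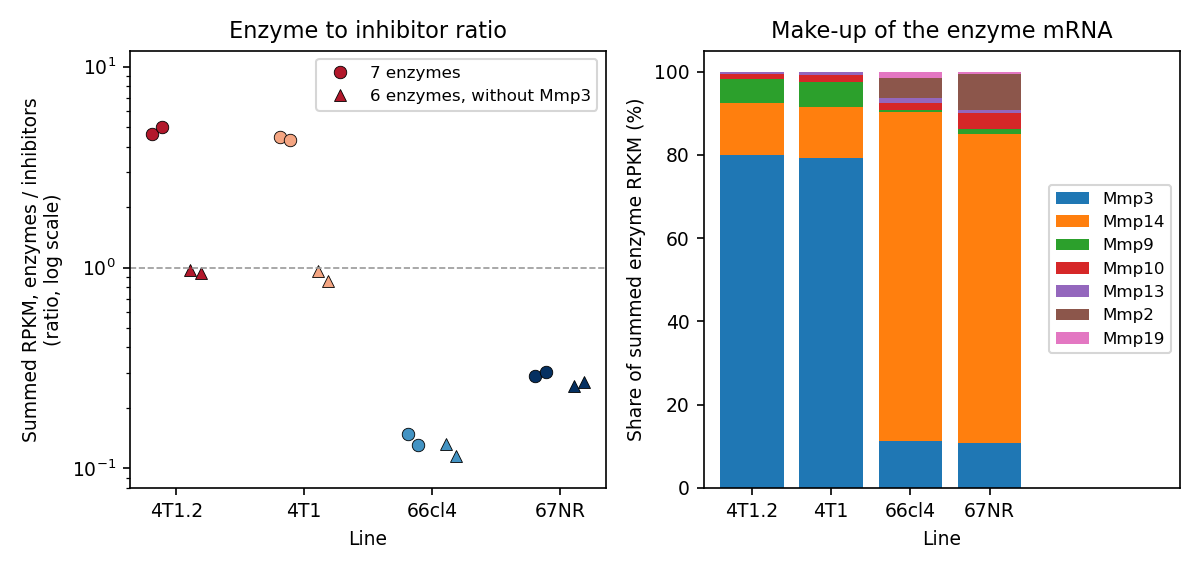
Left, summed RPKM of the enzymes over that of Timp1, Timp2 and Timp3 in each library on a log scale, with all 7 enzymes (circles) and without Mmp3 (triangles), and a dashed line at 1. Right, the share of each enzyme in the summed RPKM of the 7 enzymes of a line, from the mean of its 2 libraries. Mmp3 fills about 80.1% in 4T1.2 and Mmp14 about 79.2% in 66cl4. Other Mmp genes, such as Mmp11, are not included.

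Pairs of enzyme and inhibitor known to bind each other were set side by side per length. Mmp9 to Timp1 was 1.05 ± 0.11 for 4T1.2, 0.973 ± 0.215 for 4T1, 0.00178 ± 0.00086 for 66cl4 and 0.0161 ± 0.0022 for 67NR. Mmp14 to Timp2 was 0.814 ± 0.003, 0.740 ± 0.025, 0.138 ± 0.014 and 0.277 ± 0.014 in the same order. Mmp2 to Timp2 went the other way, from 0.00173 in 4T1.2 and 0.00348 in 4T1 to 0.00827 in 66cl4 and 0.0324 in 67NR.

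The chromosome 9 cluster holds, in order, Mmp13, Mmp12, Mmp1b, Mmp3, Mmp1a, Mmp10, Mmp8, Mmp27, Mmp20 and Mmp7. 5 of these 10 genes were tested, namely Mmp13, Mmp1b, Mmp3, Mmp1a and Mmp10. Mmp1a and Mmp1b passed the filter on low counts only through 4T1 and 4T1.2, which fixed their direction. Mmp1a, an interstitial collagenase gene of the mouse, had 409 to 638 counts in the 4 libraries of 4T1 and 4T1.2 and 0 or 1 in the others, at least 139-fold higher against a floor of 3 counts a library. Its relative Mmp1b had 152 to 239 counts against 0 to 3, at least 50.3-fold higher. Of the 75-base stretches of Mmp1b 12.8% also occur in Mmp1a or another gene, and antisense Mmp12 covers 10.8% of its exonic bases, so its counts are uncertain. The other 5 cluster genes had at most 7 counts in any library, including Mmp12 and Mmp7 with the AP-1 letters.

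Neighbouring genes were named after their values were seen. On one side of the cluster Dync2h1 changed by 0.52 ± 0.23 (edgeR adjusted p = 0.0608) and the nearer Dcun1d5 by 0.86 ± 0.06 (edgeR adjusted p = 8.11e-07) and Tmem123 on the other by 0.64 ± 0.06 (edgeR adjusted p = 5.37e-06). Birc2, an inhibitor of apoptosis gene, changed by -0.13 ± 0.06 (edgeR adjusted p = 0.0662), while its neighbour Birc3 was higher by 4.91 ± 0.15 (edgeR adjusted p = 1.17e-09). Birc3 had 1357 to 2060 counts in 4T1 and 4T1.2 but 2 to 508 in the other lines, so its fitted value averages unlike levels. Farther out on that side, Yap1 changed by 0.32 ± 0.07 (edgeR adjusted p = 0.00218) and Cfap300 by 1.48 ± 0.13 (edgeR adjusted p = 2.76e-06), and Cep126 had 371 to 614 counts in 4T1 and 4T1.2 and 0 or 1 in the other lines. The median of the 764 tested genes of chromosome 9 was 0.05.

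**Figure D4:**
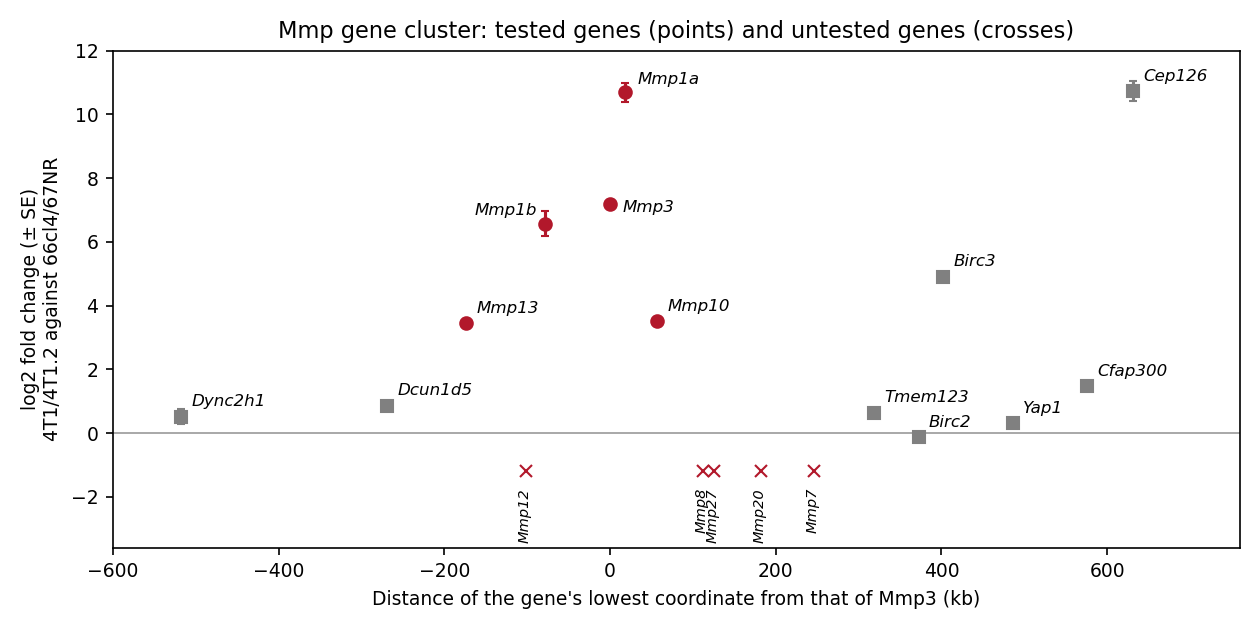
Log2 fold change, with bars of 1 SE, between the pairs of lines for genes of the Mmp cluster (red) and their neighbours (grey), against distance from Mmp3 in kb. The 5 tested Mmp genes lie between 3.45 and 10.69, where the fitted values of Mmp1a and Mmp1b depend on the prior count, and crosses mark the 5 Mmp genes that were not tested.

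Of the 17 other Mmp genes and Timp4, 7 were tested between the pairs of lines, and all 7 were called, 4 higher and 3 lower in 4T1 and 4T1.2, beside 76.8% of all genes called, 38.1% higher and 38.6% lower. The 4 higher genes had at most 11 counts in any library of 66cl4 and 67NR and passed the filter through the lines where they are high, so their direction is no result of the test. Beside Mmp1a and Mmp1b, Mmp15 (a membrane enzyme, 4.04 ± 0.26, edgeR adjusted p = 3.23e-07) and Mmp24 (another membrane enzyme, 3.40 ± 0.61, edgeR adjusted p = 0.000565) were higher. Both were low, at most 2.74 CPM in any library. Mmp11 (stromelysin-3, -0.19 ± 0.07, edgeR adjusted p = 0.0311), Mmp23 (-1.03 ± 0.28, edgeR adjusted p = 0.00683) and Mmp28 (-1.28 ± 0.17, edgeR adjusted p = 7.38e-05) were lower, with libraries that overlapped between the pairs. These 3 were highest in 66cl4, and against 67NR alone 4T1.2 was higher for Mmp11 (0.64 ± 0.10, edgeR adjusted p = 0.000263) and not called for Mmp23 (edgeR adjusted p = 0.999) or Mmp28 (edgeR adjusted p = 0.888). Mmp23 was low too, with 6 to 27 counts in a library.

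Of 20 genes for activators, binding partners and other inhibitors of these enzymes, 14 were tested, 6 higher and 6 lower, so 12 were called, beside the same 76.8% of all genes. Plau, which encodes urokinase, the activator of plasminogen, had 35029 to 72698 counts in 4T1 and 4T1.2 and 13 to 17 in the other lines (log2 fold change 11.53 ± 0.13, edgeR adjusted p = 6.64e-12). Lcn2, whose product binds Mmp9, was higher by 4.15 ± 0.19 (edgeR adjusted p = 1.95e-08), and Itgb3, an integrin chain, by 10.28 ± 0.28 (edgeR adjusted p = 4.61e-10) from 0 to 4 counts in 66cl4 and 67NR. Itgb3 passed the filter on low counts only through 4T1 and 4T1.2, which fixed its direction, and its fitted value depends on the prior count.

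Reck, a membrane-anchored inhibitor of Mmp2, Mmp9 and Mmp14, fell to 8.36 to 13.8 CPM in 4T1 and 4T1.2 from 22.3 to 51.2 CPM in the other lines (-1.73 ± 0.09, edgeR adjusted p = 4.13e-08). Cav1 (caveolin-1, -4.53 ± 0.07, edgeR adjusted p = 2.14e-11) and Thbs1 (thrombospondin-1, -2.53 ± 0.09, edgeR adjusted p = 2.66e-09) were also lower. Furin, the protease that activates the Mmp14 proenzyme, was lower by little and with overlap (-0.36 ± 0.11, edgeR adjusted p = 0.0113). It was highest in 66cl4 (127 CPM on average), and against 67NR alone it was higher in 4T1.2 (0.39 ± 0.15, edgeR adjusted p = 0.0425). Bsg, which encodes an inducer of these enzymes, did not pass the test (0.22 ± 0.11, edgeR adjusted p = 0.103).

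For each tested gene, the 2 genes whose log2 CPM was most like its own over the 8 libraries are given as a description. With only 4 lines many genes share a pattern, and 383 genes had a Pearson r over 0.99 with Mmp3, led by Fbxo17 (0.9998) and Mgat3 (0.9996). The closest to Mmp9 were Flrt3 (0.9986) and Dzip1 (0.9982), and to Mmp10 they were Neurl3 (0.9991) and Padi4 (0.9982). Mmp2 was followed by Slc33a1 (0.9977) and Scd2 (0.9963). Endod1 and Chchd10 followed Mmp13 (0.997 for both), and Ipo5 (0.9976) and Tdp1 (0.9965) followed Mmp14. No gene exceeded 0.99 for Mmp19, with Efnb1 (0.9882) and Glud1 (0.9816) closest, or for Timp1, with Rp9 (0.9887) and Tsen34 (0.9862). For Timp2 they were Mmp23 (0.9922), which had at most 27 counts in a library, and P3h2 (0.988). Among the members, Mmp3 and Mmp9 had an r of 0.981 and Mmp3 and Timp1 one of 0.477.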

How the data were processed

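RNA-seq of 4 mouse mammary tumour lines was used, with 2 libraries of each. The authors aligned reads with Rsubread (mm10) and used featureCounts to assign them to Entrez genes, and deposited raw counts per gene. The study names Illumina's TruSeq RNA v2 protocol for the libraries. Whether counting used strand is not given in the sources used here. The labels spell 66cl4 with a digit, and the spelling of the study was used.

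Of 27179 genes, 25275 (93.0%) matched a GRCm38 gene table. filterByExpr kept 15269, and removal of 533 unmatched, 695 predicted and 114 ribosomal genes left 13927. These were fitted with edgeR 4.0.16 (R 4.3.3) by the quasi-likelihood method, TMM scaling, a prior count of 0.125 and a mean for each line, with 4 residual degrees of freedom. Its biological coefficient of variation was 9.74%. Tests were checked on simulated counts for 13927 genes, where the comparison of pairs of lines recovered 91 of 100 genes changed by a log2 of 1 and 100 of 100 changed by 2, with 13 false calls. For 4T1.2 against 67NR it recovered 79 and 96 of 100, with 18 false calls. Far fewer genes were changed in the simulation than were called in the data.

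The members and lists were chosen with earlier results of these data known. The genes named are the members, all other tested Mmp genes, Reck, Furin, Bsg and, from the lists of activators and adamalysins, up to 3 in each direction with the largest called change and no overlap. A fold against a group at 3 counts or fewer in every library is a bound, which covers counting error only. Alternatives were DESeq2 size factors, no filter, a minimum of 10 counts per library, keeping all annotation classes, DESeq2 1.42.0, limma-voom (limma 3.58.1), edgeR's test for changes beyond a log2 of 1, a replicate block, 2 groups of 4 libraries and leaving out each library. edgeR's newer fit was added after seeing the data. The log2 fold changes carry the edgeR standard error.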

Additional observations from a re-analysis of the deposited data

How the results depend on the processing

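The 9 genes called between the pairs of lines stayed 8 or 9 when any library was left out, and became 6 with 2 groups of 4 libraries, without Mmp19, Timp1 and Timp2. The setting with 2 groups counts libraries of 1 line as separate replicates, so its calls do not test the phenotypes over lines. The calls of all genes numbered 10689, with 9915 to 10794 without 1 library, and 3622 when changes were tested against a log2 of 1. Under that test 1 member was called between 4T1.2 and 4T1, and 3 members between 66cl4 and 67NR. Without 1 library these counts were 1 to 4 and 6 to 9. Calls of all genes fell from 2687 between 4T1.2 and 4T1 to 303 under that test and to 1373 and 1427 without either 4T1.2 library, and from 6216 between 66cl4 and 67NR to 1056 and, without 67NR replicate 2, to 4142. In the other comparisons of single lines 9450 to 9756 became 3406 to 3686. Values whose direction turned were those of inhibitors, none of them called: without 1 library, Timp2 ranged from -0.0354 to 0.108 between 4T1.2 and 67NR, and Timp1 from -0.214 to 0.12 between 4T1 and 66cl4 and from -0.0594 to 0.287 between 4T1.2 and 4T1. Without length, from CPM, the enzyme to inhibitor ratio was 3.29 for 4T1.2, 3.02 for 4T1, 0.115 for 66cl4 and 0.244 for 67NR. By limma-voom, Mmp2 lost its call between 4T1.2 and 4T1 (adjusted p = 0.0616) and Mmp13 between 66cl4 and 67NR (adjusted p = 0.114). Without removal by annotation Mmp13 also lost it there (edgeR adjusted p = 0.0541). Of 1080 changes of members under alternatives, 1017 kept direction and call, 60 lost the call and 3 reversed. Same-numbered replicates deviated together little (correlations of -0.123 to 0.27), and the replicate block left 9 members called between the pairs of lines and changed no count of members called. The newer edgeR fit also called 9. Depth limits Timp3, with at most 14 counts in a library. The causes of lost calls were not tested.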

Other observations

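The adamalysins are relatives of the matrix metalloproteinases that shed membrane proteins (Adam genes) or cleave proteoglycans (Adamts genes). Of 20 listed, 16 were tested between the pairs of lines, and 8 were higher and 6 lower in 4T1 and 4T1.2, so 14 were called, beside 76.8% of all genes, 38.1% higher and 38.6% lower. Adam19 had 1008 to 2219 counts in 4T1 and 4T1.2 and 1 to 11 in 66cl4 and 67NR (log2 fold change 9.0 ± 0.27, edgeR adjusted p = 8.87e-10). It passed the filter on low counts only through 4T1 and 4T1.2, which fixed its direction. Adam33 was higher by 5.05 ± 0.17 (edgeR adjusted p = 1.75e-09). Adam12 had 53 and 12 counts in 4T1, 7 and 4 in 4T1.2 and at most 1 in the other lines, and 4T1.2 alone was not called against 67NR (edgeR adjusted p = 0.0545) or 66cl4 (edgeR adjusted p = 0.134). Adam12 passed the filter only through 4T1.

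The Adamts genes, which encode secreted proteases with thrombospondin motifs, went both ways. Adamts4 (2.41 ± 0.11, edgeR adjusted p = 2.54e-08) and Adamts10 (0.66 ± 0.10, edgeR adjusted p = 0.000239) were higher in 4T1 and 4T1.2, chosen here after their values were seen. Adamts5, an aggrecanase, had 0 to 2 counts in each library of 4T1 and 4T1.2 and 1735 to 5167 in the other lines, at least 1403-fold lower. Adamts12 was lower by a log2 fold change of -5.16 ± 0.34 (edgeR adjusted p = 3.3e-07) and Adamts1 by -2.90 ± 0.08 (edgeR adjusted p = 6.65e-10). Adamts5 and Adamts12 passed the filter on low counts only through 66cl4 and 67NR, which fixed their direction. Adamts1 measured 606 and 633 CPM in 66cl4 and 100.1 and 118 CPM in 67NR, so its level also differed between those lines.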
